A study of Mus musculus with 6 samples.

Results

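The genes described here are 7 transcripts that progesterone is known to raise in the mouse uterus: Areg, Il13ra2, Acod1, Fkbp5, Zbtb16, Lrp2 and Edn1. They were chosen by name, with earlier results of these data known. Every probe set (the group of short oligonucleotides that reads 1 transcript on the array) whose platform annotation gives exactly 1 of these symbols was taken, which gave 12 probe sets for 6 of the 7 genes, out of 45037 probe sets without controls. Areg, an epidermal growth factor receptor ligand, had no such probe set and was not analysed here.

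Uterine RNA was compared between 3 control samples carrying floxed Indian hedgehog alleles (Ihhf/f) and 3 samples in which the gene was ablated (PRcre/+Ihhf/f, called Ihhd/d), all on day -1 of an artificial decidual response. In that response as a whole, hormones and a mechanical stimulus make the endometrial stroma differentiate as in early pregnancy. The negative day places these samples ahead of the day from which the response is counted. Whether the stimulus had been given, or the stroma had begun to differentiate, by then is not stated here. The Cre is driven from the progesterone receptor locus (Pgr), so it acts in the cells that express that receptor, and the ablated samples also carry 1 Pgr allele with the Cre insertion, which the controls lack. An effect of that allele cannot be told apart from an effect of Ihh loss. The sources used here do not give the ages of the mice, the hormone doses or the number of mice per sample. The source field of the labels names an activated Smoothened model in both groups, whereas the titles, genotypes and design text give the Ihh genotypes used here. Every sample was taken on the same day and under the same regimen, so induction by progesterone itself was not measured.

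Progesterone binds its receptor in uterine epithelium and stroma, and the receptor, held ready by HSP90 chaperones, switches on target genes in each layer. Ihh is itself such a target in the epithelium, and its product signals through Ptch1 and Gli1 to the stroma. The genes studied here lie beside Ihh as targets of the same hormone. They encode surface and secreted proteins (Il13ra2, Lrp2, Edn1, Areg), a mitochondrial enzyme (Acod1), a receptor co-chaperone (Fkbp5) and a transcriptional repressor (Zbtb16).

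Both genes that fell without Ihh, Il13ra2 and Acod1, have a RefSeq promoter of 300 bases in assembly GRCm38.p6, shown because these are the members that passed the test. Each runs 5′ to 3′ on the strand of the gene, from 250 bases before the transcription start to 50 after it. Capitals mark TATAAA, the letters of a TATA box, and TGACTCA, which matches the AP-1 letters TGANTCA. The Il13ra2 window is chrX:147429143-147429442 on the minus strand, and the Acod1 window is chr14:103046762-103047061 on the plus strand.
Il13ra2: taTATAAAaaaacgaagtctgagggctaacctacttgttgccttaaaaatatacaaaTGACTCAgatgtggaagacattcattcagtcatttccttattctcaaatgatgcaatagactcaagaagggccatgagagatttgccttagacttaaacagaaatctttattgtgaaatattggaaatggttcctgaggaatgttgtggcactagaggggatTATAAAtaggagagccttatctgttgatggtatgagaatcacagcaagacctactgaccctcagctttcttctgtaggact
Acod1: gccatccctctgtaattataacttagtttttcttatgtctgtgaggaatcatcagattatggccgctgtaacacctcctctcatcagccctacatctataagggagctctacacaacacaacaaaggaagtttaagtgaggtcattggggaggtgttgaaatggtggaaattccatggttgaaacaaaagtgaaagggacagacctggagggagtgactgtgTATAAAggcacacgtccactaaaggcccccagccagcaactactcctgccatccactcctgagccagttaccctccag

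The TATAAA letters began 31 bases before the start in Il13ra2 and 28 bases before it in Acod1, and Il13ra2 held a further match 248 bases before the start. Areg, which was not measured, held TATAAA 31 bases before its start, so 3 of the 6 windows found for these genes held it. Among 32851 mouse promoter windows of this length, 13.6% held TATAAA and 7.81% held TGANTCA on either strand. The core letters of the palindrome that progesterone and glucocorticoid receptors share, ACANNNTGT, were in 0 of the 6 windows found for these genes and in 6.85% of all windows. The GLI letters GACCACCCA were likewise in 0 of the 6, against 0.253% of all windows. The AP-1 letters overlapped no other match. A match is a description of letters, and a window without one says only that those letters are not in these 300 bases. Of the 7 genes, 6 had an entry in the promoter table, Areg among them, and Zbtb16 had none.

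Median intensities of the 6 arrays lay between 121.4 and 142.5. Gli1, the Hedgehog-induced transcription factor, fell in Ihh-ablated uteri (log2 -2.53, adjusted p = 0.000492), as did Ptch1, the Hedgehog receptor (log2 -1.65, adjusted p = 0.00146). The Ihh probe set differed by -0.43 (adjusted p = 0.164), and which part of the gene was deleted is not stated in the labels. Summed over 6 adipocyte markers, intensity ran from 1945 in control replicate 1 to 9198 in control replicate 3, and from 7060 to 18830 in the Ihh-ablated arrays. Summed over 7 pancreatic acinar markers it was 64670 in Ihh-ablated replicate 2, against 668.2 to 2279 in the other 5 arrays. Transcripts known from other tissues thus differed between arrays, and their part in the results was not tested beyond the alternatives given beside them. In whole uterus, fewer cells of a type and less RNA per cell cannot be told apart.

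Of the 6 measured genes 2 fell in Ihh-ablated uteri, 0 rose and 4 did not pass the test, by limma with an adjusted p under 0.05. Over all 15530 genes tested, 2.81% were called, 1.53% as lower and 1.28% as higher. Because the genes were chosen with earlier results of these data known, setting their count beside that share is not a test. Of the 6 genes, 3 had an unadjusted p under 0.05. The share of all genes under that unadjusted threshold was not counted, so such counts, here and below, have no background to be read against. The shares called rest on the adjusted p and are not that background. The median log2 difference was -0.12 for the 6 genes and -0.04 for all genes tested. Each gene is represented by its brightest probe set, and all values are the authors' processed intensities, so that a level can be compared between arrays for 1 probe set but not between genes.

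Il13ra2 encodes a receptor that binds interleukin 13 tightly and, having a short tail, is best known as a decoy. Its single probe set read 587.0, 470.0 and 411.1 in control replicates 1, 2 and 3. In Ihh-ablated replicates 1, 2 and 3 it read 146.2, 204.4 and 141.3. Every Ihh-ablated array lay far below every control array, and the lowest control value was above the highest Ihh-ablated value. The mean fell from 489.4 ± 89.6 to 164.0 ± 35.1 (intensity ± SD, n = 3 each). From the mean log2 values, on which the test runs, the fall was 2.99-fold (log2 -1.58, SE 0.18, adjusted p = 0.00355), with a 95% interval of the log2 difference from -1.98 to -1.18. Leaving out each array in turn kept the call, with log2 differences from -1.75 to -1.44. Without control replicate 3 and Ihh-ablated replicate 2 together the difference was -1.87 (adjusted p = 0.000615). With the mean of the adipocyte markers as a covariate it was -1.35 and no longer passed (adjusted p = 0.0837), in a fit that called 23 of 33777 probe sets.

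Acod1 encodes the mitochondrial enzyme that makes itaconate from cis-aconitate. It is best known from activated macrophages, and in the mouse uterus progesterone raises it in the luminal epithelium before implantation. Its single probe set read 2348, 2434 and 2877 in control replicates 1, 2 and 3. The Ihh-ablated replicates 1, 2 and 3 read 1736, 1057 and 728.2. The groups did not overlap, but the Ihh-ablated arrays were spread widely, and replicate 1 lay closest to the controls. The mean fell from 2553 ± 284 to 1174 ± 514 (n = 3 each). From the mean log2 values the fall was 2.31-fold (log2 -1.21, SE 0.25, adjusted p = 0.0464), with a 95% interval from -1.78 to -0.64. This call lay at the edge of the threshold: it was kept in 5 of 19 alternative settings and lost, with the direction kept, in the other 14. Dropping control replicate 1 gave an adjusted p of 0.141, and dropping control replicate 2 gave 0.121. Dropping Ihh-ablated replicate 2 gave 0.107, and dropping Ihh-ablated replicate 3 gave 0.0815. The call was kept when control replicate 3 was dropped (adjusted p = 0.0398) or Ihh-ablated replicate 1 was (log2 -1.54, adjusted p = 0.00849).

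Acod1 is also made by activated macrophages and neutrophils, so their markers were read on the same arrays. Of 7 macrophage markers 0 passed the test, with 1 at an unadjusted p under 0.05, a median log2 difference of 0.10 and summed intensities of 4895 to 5570 in control and 4621 to 5866 in Ihh-ablated arrays. Those ranges overlapped. Of 4 neutrophil markers tested 0 passed, and 0 had an unadjusted p under 0.05. Their median log2 difference was -0.23. Their sums were 574.4, 837.9 and 574.0 in control replicates 1, 2 and 3, and 563.3, 534.8 and 558.0 in the Ihh-ablated replicates. Every Ihh-ablated sum lay below every control sum, but control replicates 1 and 3 lay only slightly above the highest Ihh-ablated sum. Groups did not overlap for 32.3% of all genes tested either. The epithelial markers, for the layer in which Acod1 is known, numbered 8, of which 0 passed the test and 4 had an unadjusted p under 0.05, and their median log2 difference was 0.28. Their summed intensity was 11440 to 16910 in control and 15680 to 17650 in Ihh-ablated arrays, and these ranges overlapped. The part of any of these cell types in the Acod1 values was not tested.

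**Figure D1:**
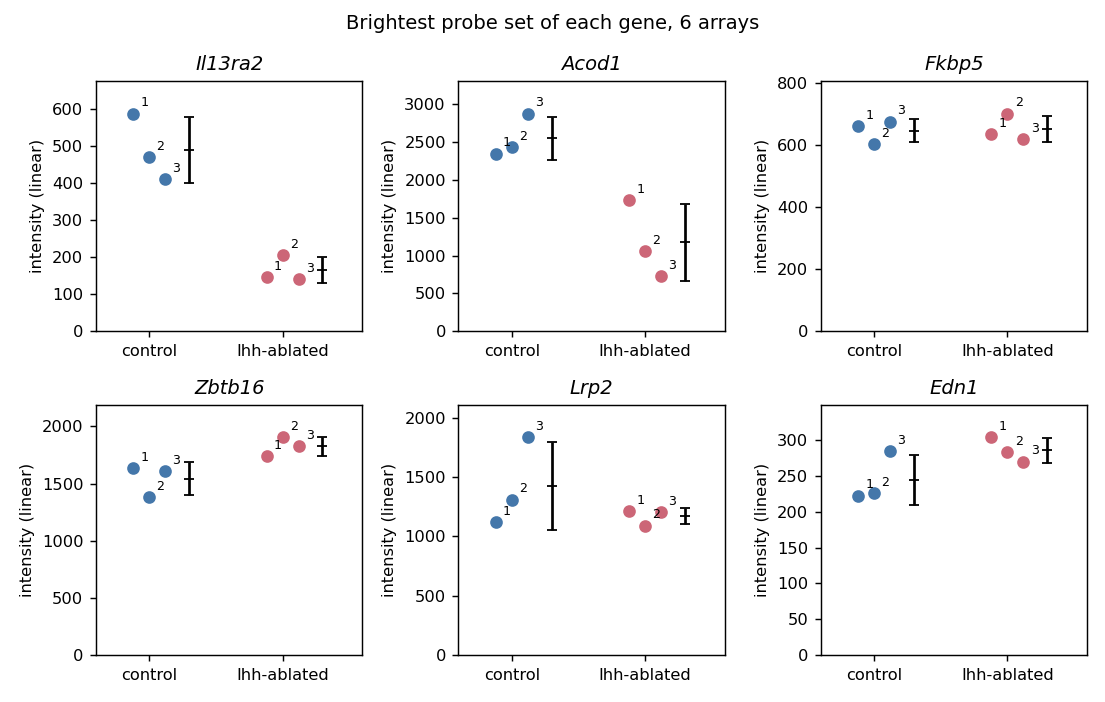
Linear intensity (vertical axes, from 0) of the brightest probe set of 6 progesterone target genes in 3 control (blue) and 3 Ihh-ablated (red) arrays, with replicate numbers beside the points and the mean ± SD as black bars. Il13ra2 and Acod1 separate widely, Zbtb16 separates by a small margin, and control replicate 3 stands high for Lrp2 and Edn1.

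Fkbp5 encodes a co-chaperone that joins HSP90 complexes and lowers hormone binding by steroid receptors, and it is a standard readout of progesterone, glucocorticoid and androgen receptor activity. Its brightest probe set read 659.4, 603.1 and 674.5 in control replicates 1, 2 and 3. It read 633.4, 700.1 and 619.2 in Ihh-ablated replicates 1, 2 and 3. The groups lay on top of each other, at 645.7 ± 37.7 and 650.9 ± 43.2 (n = 3 each). The log2 difference was 0.01 (adjusted p = 0.948), with a 95% interval from -0.19 to 0.21, which leaves out changes the size of those of Il13ra2 and Acod1. Its sign turned in 6 of 19 alternatives. Another probe set read 226.5 ± 13.6 and 250.3 ± 13.7, a log2 difference of 0.14 (adjusted p = 0.425).

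The dimmest Fkbp5 probe set went the other way. Its control replicates 1, 2 and 3 read 44.0, 28.7 and 22.0, whereas the Ihh-ablated replicates read 9.57, 10.8 and 14.4. All 3 Ihh-ablated values lay under the floor of 16, and the probe set was among the dimmest 25% that were not tested. Without that filter its log2 difference on floored values was -0.92 (adjusted p = 0.106).

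Zbtb16 encodes PLZF, a zinc finger repressor that progestins and glucocorticoids induce in endometrial stroma. Its brightest probe set read 1638, 1380 and 1611 in control replicates 1, 2 and 3. It read 1743, 1904 and 1829 in Ihh-ablated replicates 1, 2 and 3. The Ihh-ablated arrays were all higher, by a margin that is narrow beside the spread within groups. The log2 difference was 0.25, with a 95% interval from 0.06 to 0.43 and an unadjusted p of 0.0139, and it did not pass after adjustment (adjusted p = 0.136). The call was absent in each of the 19 alternatives too, and the direction was kept in each, although the difference was only 0.037 for the mean of its probe sets. The other Zbtb16 probe sets differed in sign, at 0.10 (adjusted p = 0.617) and -0.24 (adjusted p = 0.429), and their groups overlapped.

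Lrp2 encodes megalin, a large endocytic receptor of epithelia that takes up vitamin and hormone carriers. Its brightest probe set read 1116, 1309 and 1833 in control replicates 1, 2 and 3. In the Ihh-ablated replicates 1, 2 and 3 it read 1215, 1088 and 1202. Control replicate 3 stood well above the other 5 arrays, which lay close together. The log2 difference was -0.25 (95% interval -0.60 to 0.10, adjusted p = 0.349), and without control replicate 3 it was -0.05 (adjusted p = 0.748). With the adipocyte covariate it was -0.52 (adjusted p = 0.399). A further probe set showed the same array pattern, with control readings of 957.7, 1280 and 1528, Ihh-ablated readings of 1061, 1063 and 1095, and a log2 difference of -0.20 (adjusted p = 0.414). The dimmest Lrp2 probe set read 35.4 to 54.1 in control and 36.4 to 43.9 in Ihh-ablated arrays and was not tested.

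Edn1 encodes endothelin 1, a vasoconstrictor peptide made by endothelium and by uterine epithelium. Its probe set read 222.6, 225.8 and 285.0 in control replicates 1, 2 and 3. The Ihh-ablated replicates 1, 2 and 3 read 303.9, 283.2 and 270.1. Control replicate 3 lay among the Ihh-ablated arrays and the other controls lay below them. The log2 difference was 0.23 (95% interval -0.05 to 0.52, adjusted p = 0.294), and without control replicate 3 it was 0.35 (adjusted p = 0.0903), still short of the threshold. Of 8 endothelial markers 1 fell, against 1.53% called as lower over all genes tested. The summed intensity of these markers was 4931 to 5460 in control and 4835 to 5473 in Ihh-ablated arrays.

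Over the probe sets rather than the genes, 10 of the 12 were bright enough to be tested, 2 fell, 0 rose and 8 did not pass, against 2.14% called among all 33777 tested, 1.11% as lower and 1.03% as higher. Groups did not overlap for 3 of the 6 genes, against 32.3% of all genes tested, and for 4 of the 10 probe sets, against 31% of all probe sets tested. A separation of the groups alone was therefore common on these arrays.

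**Figure D2:**
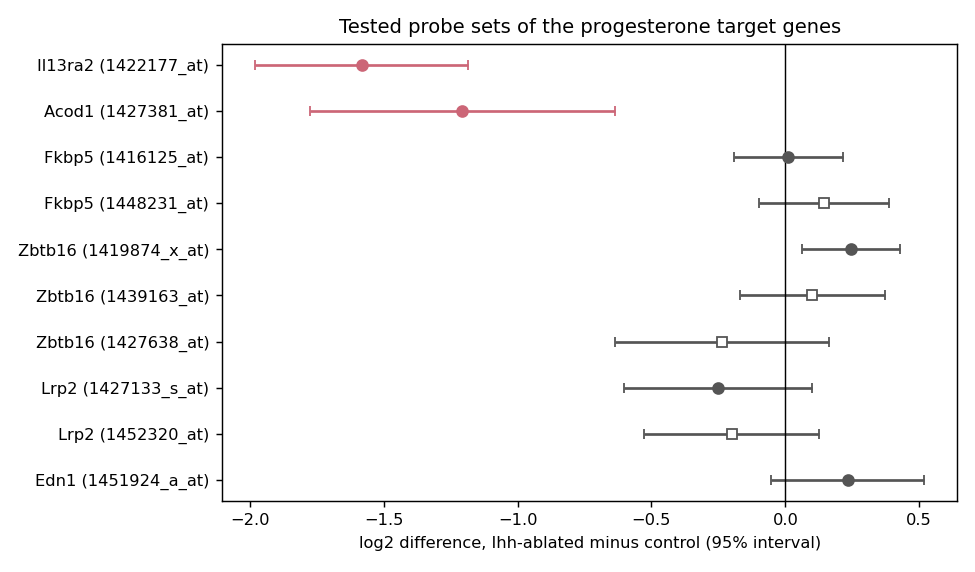
Log2 difference, Ihh-ablated minus control (horizontal axis), with its 95% interval from limma for the 10 tested probe sets. Filled circles are the brightest probe set of a gene, open squares the others, and red marks an adjusted p under 0.05, which only Il13ra2 (-1.58) and Acod1 (-1.21) reached among these 10.

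The alternative settings separate both called genes. Across 19 of them Il13ra2 stayed past the threshold in 18 and Acod1 in 5, and the direction of both was kept in each. Some settings could hardly move either gene, because all their values lay well above the floor. With a floor of 64, or a pseudocount of 1 in place of the floor, the differences stayed at -1.58 and -1.21. Both of these settings are among those that kept the Acod1 call. The size of the Acod1 difference ranged from -1.54 to -0.91 as single arrays were left out, the smallest without Ihh-ablated replicate 3, its lowest array.

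**Figure D3:**
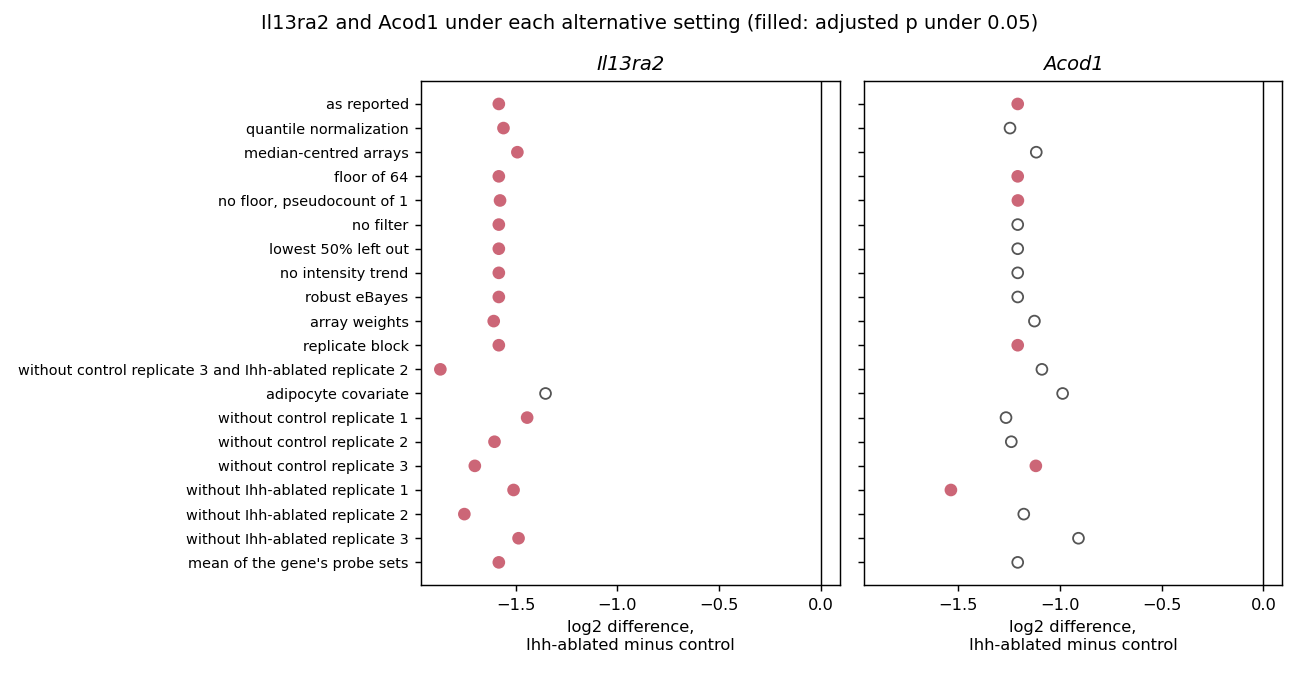
Log2 difference, Ihh-ablated minus control (horizontal axes), of Il13ra2 (left) and Acod1 (right) as reported and under 19 alternative settings (rows). Filled points have an adjusted p under 0.05, 18 of the 19 alternatives for Il13ra2 and 5 for Acod1, and every point lies below 0.

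Among the hormone receptors and chaperones that act upstream of these genes, none passed the test. Pgr, the progesterone receptor, read 2852, 2877 and 3126 in control replicates 1, 2 and 3. It read 3463, 3334 and 3230 in the Ihh-ablated replicates. The Ihh-ablated arrays were slightly higher, with a log2 difference of 0.18 that did not pass (adjusted p = 0.129). Esr1, the oestrogen receptor, differed by 0.32 without overlap of the groups (adjusted p = 0.0547) and passed in 5 of 18 alternatives, and Fkbp4, the HSP90 co-chaperone that opposes Fkbp5, by 0.12 (adjusted p = 0.337). Of 9 steroid receptors and Fkbp5 partner chaperones tested, limma called 0, and the median log2 difference was 0.12. An unadjusted p under 0.05 was found for 2, with no share over all genes counted for that threshold. Without control replicate 3 both Pgr and Esr1 passed as higher.

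Other genes known to respond to progesterone in the uterus moved both ways. Of 19 tested, 1 rose and 2 fell, and the other 16 did not pass. Over all genes tested, 1.28% were called as higher and 1.53% as lower. Of the 19, 9 had an unadjusted p under 0.05, a threshold for which no share over all genes was counted. Their median log2 difference was -0.08, against -0.04 for all genes. Errfi1 (Mig-6), a progesterone-induced brake on the epidermal growth factor receptor, rose from 2637 ± 202 to 3297 ± 84.3 (log2 0.32, adjusted p = 0.0391). Alox15, a lipoxygenase, fell from 588.8 ± 56.7 to 380.9 ± 61.4 (log2 -0.64, adjusted p = 0.0489). Ptger4, a prostaglandin E2 receptor, fell from 1211 ± 123 to 849.5 ± 80.5 (log2 -0.51, adjusted p = 0.0394). Among the 16 that did not pass, the largest differences were those of Fst and Bmp2, both without overlap of the groups. Fst read 324.7 to 830.6 in control and 219.0 to 254.2 in Ihh-ablated arrays (log2 -1.11, adjusted p = 0.0783). Bmp2 differed by 0.61 (adjusted p = 0.0877). Hand2 lay closest to the threshold (log2 -0.43, adjusted p = 0.0514) and passed in some alternatives, quantile normalization among them. The 3 calls were close to the threshold: dropping control replicate 1, or any 1 of the Ihh-ablated replicates, left 0 calls, dropping control replicate 2 left 1, and dropping control replicate 3 gave 6. With control replicate 3 and Ihh-ablated replicate 2 both dropped there were 5.

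Targets shared by the progesterone and glucocorticoid receptors, the class to which Fkbp5 and Zbtb16 belong, numbered 16, of which 2 rose and 0 fell, and their median log2 difference was 0.18. Over all genes tested 2.81% were called by adjusted p. Of the 16, 5 had an unadjusted p under 0.05, which is another threshold and for which no share over all genes was counted. Dusp1, a phosphatase that shuts off MAP kinases, rose from 535.6 ± 36.3 to 900.2 ± 140 (log2 0.74, adjusted p = 0.0180), and Errfi1, which also belongs to the list above, was the other. Klf9, a progesterone receptor partner, read 1993 to 2694 in control and 2841 to 3071 in Ihh-ablated arrays (log2 0.37, adjusted p = 0.0931). Dropping control replicate 1, Ihh-ablated replicate 1 or Ihh-ablated replicate 3 left 0 calls, dropping either replicate 2 left 1, and dropping control replicate 3 gave 5.

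The receptors, ligands and partners of the 7 proteins gave 1 rise and 0 falls among 19 tested genes, against 2.81% called over all genes tested. Of the 19, 5 had an unadjusted p under 0.05, for which no share over all genes was counted, and the median log2 difference was 0.04. The rise was that of Lrp1, the endocytic receptor related to Lrp2, from 929.7 ± 48.3 to 1219 ± 92.6 (log2 0.39, adjusted p = 0.0495), a call lost when any 1 array but control replicate 3 was dropped. Il13ra1, the signalling receptor for interleukin 13 that pairs with Il4ra, read 162.2 to 193.6 in control and 229.5 to 242.7 in Ihh-ablated arrays, so its groups separated in the direction opposite to Il13ra2 (log2 0.43, adjusted p = 0.0893, which did not pass). Il4ra differed by 0.34 (adjusted p = 0.214) and Il13 itself by -0.27 (adjusted p = 0.345), both chosen here for their tie to Il13ra2 after their values were seen. Egfr, the receptor for amphiregulin, differed by -0.47 (adjusted p = 0.0795). Ednrb, an endothelin receptor, and Ece1, which processes endothelin, differed by 0.11 (adjusted p = 0.523) and 0.16 (adjusted p = 0.336), and these too were chosen after their values were seen. Edn3, another endothelin, read 198.8 to 299.3 in control and 164.8 to 178.2 in Ihh-ablated arrays, without overlap (log2 -0.59, adjusted p = 0.0942, which did not pass).

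**Figure D4:**
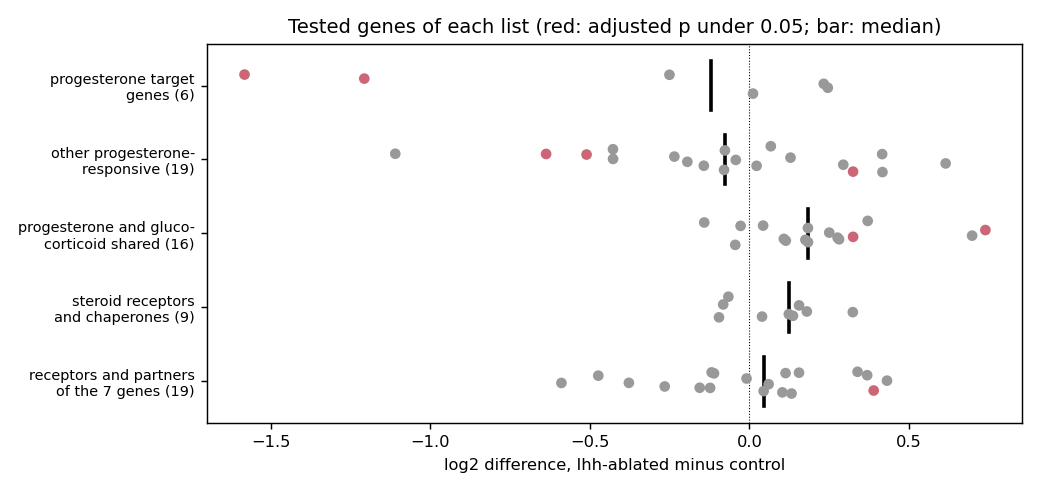
Log2 difference, Ihh-ablated minus control (horizontal axis), of each tested gene (points, spread vertically at random) in the 6 progesterone target genes and 4 lists of related genes, with the number of genes tested in brackets, the median as a black bar and genes with an adjusted p under 0.05 in red. Il13ra2 and Acod1 lie at the far left, with Fst of the other progesterone-responsive genes (-1.11) close to Acod1 (-1.21). The medians lie between -0.12 and 0.18.

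The genes whose log2 intensity followed each member most closely were ranked by Pearson correlation over the 6 arrays, as a description. The 6 arrays fall into 2 groups, so genes that differ between them correlate for that reason alone. For Il13ra2 they were Lmnb2, a nuclear lamin (r = 0.998), Mcm2, a subunit of the replicative helicase (r = 0.997), and 2010204K13Rik (r = 0.997). Mcm2 read 496.5 to 592.4 in control and 268.4 to 314.7 in Ihh-ablated arrays, and like Il13ra2 it was highest in control replicate 1 and, among Ihh-ablated arrays, in replicate 2. For Acod1 they were Nudt19 (r = 0.9996), Dmac1 (r = 0.992) and 5033404E19Rik (r = 0.990), of which Nudt19, a hydrolase, read 1708 to 1870 in control and 1473, 1191 and 982.8 in Ihh-ablated replicates 1, 2 and 3. For Zbtb16 they were Slc23a2 (r = 0.996), Gm16136 (r = 0.995) and Ctage5 (r = 0.995), and for Fkbp5 Nlrc5 (r = 0.977), Dancr (r = 0.968) and Luc7l (r = 0.967).

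Lrp2 was followed by Ldb3 (r = 0.990), Myl2 (r = 0.989) and Plscr1 (r = 0.984). Ldb3 and Myl2 are sarcomere genes of striated muscle, and Myl2 read 174.3 in control replicate 3 against 66.2 to 90.8 in the other 5 arrays, the array in which Lrp2 was also highest. Striated muscle RNA as a part of the Lrp2 value was not tested, and the Lrp2 value without that array is given above. Edn1 was followed by Smim22 (r = 0.992), Pard6b, a cell polarity protein (r = 0.990), and Iqgap2 (r = 0.986), each of which stood in control replicate 3 near its Ihh-ablated level.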

How the data were processed

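Per the labels, total RNA of whole uterus was labelled as biotinylated cRNA and hybridised, 1 sample per array. The deposited values are linear intensities, 1 per probe set and array, as the authors processed them. How probes were summarised, background-corrected and normalized is not given in the sources used here. Without detection calls, dim probe sets have no stated background.

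Groups came from the sample titles. Of 45101 probe sets 64 controls were left out, and the platform annotation gave 34945 of the rest 1 symbol, 932 several and 9160 none. By Entrez identifier 34741 of the first matched the RefSeq gene table, with 0 changes of symbol. A floor of 16 was set on intensities before taking log2. Array medians differed by 0.23 log2, under the limit of 0.3, so no renormalization was made. The dimmest 25% of probe sets by mean log2 were not tested, which left 33777. The comparison used limma 3.58.1 under R 4.3.3 (lmFit, eBayes with an intensity trend), with Benjamini-Hochberg adjustment over all tested probe sets and a threshold of 0.05. On simulated data the fit recovered 91 of 91 differences of 2-fold and 85 of 85 of 4-fold. The simulated noise was independent, with a spread smoothed over intensity and no differences in array quality, so it does not show how the fit fares on these arrays. The labels do not say whether samples came from separate mice, so the p-values cover only the variation among these arrays, possibly technical, and 3 arrays per group limit the precision.

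Named were all members with every probe set, in each list the called genes and those of lowest p, the 3 genes most correlated with each member, and Ihh, Gli1, Ptch1, Pgr and Esr1. Members, lists, tests and alternatives were chosen with earlier results of these data known. Besides those in the text, marker lists of gland, stroma, smooth muscle and mesothelium gave 2 rises of 5 tested genes, 1 rise and 2 falls of 7, 1 fall of 6 and 0 calls of 3. Of the gland markers Cxcl15 (log2 0.79) and Sox9 (0.83) rose. In the stroma list Thy1 (-1.44) and Vim (-0.37) fell and Dcn (0.24) rose, and the smooth muscle marker Actg2 (-0.25) fell. The part of these cell types in the members' values was not tested. The share called over all genes tested was 2.81%. Sequences are RefSeq's, and plots were made in Python 3.11.15 with matplotlib 3.10.9.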

Additional observations from a re-analysis of the deposited data

How the results depend on the processing

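Over 19 alternatives Il13ra2 kept its direction in each and its call in all but the adipocyte covariate (-1.35), with a range of -1.75 to -1.44 as single arrays were left out. Acod1 kept its direction in all 19. It lost its call after quantile normalization (-1.24, adjusted p = 0.0602), with median-centred arrays (-1.12, 0.0749), without a filter (-1.21, 0.0764), with the lowest 50% left out (-1.21, 0.0515), without an intensity trend (-1.21, 0.0950), with robust eBayes (-1.21, 0.125), with array weights (-1.12, 0.0620), without control replicate 3 and Ihh-ablated replicate 2 (-1.09, 0.0510), with the adipocyte covariate (-0.99, 0.473), with gene means over probe sets (-1.21, 0.0598) and without 4 of the 6 single arrays. Over all 6 such omissions it ranged from -1.54 to -0.91. The cause was not tested. Fkbp5, near 0 as reported, turned sign after quantile normalization (-0.018), with array weights (-0.0060), without control replicate 3 and Ihh-ablated replicate 2 (-0.010), with the mean of its probe sets (-0.25), which gives its dim probe set equal weight, and without control replicate 2 or Ihh-ablated replicate 2. Over all 6 omissions of 1 array it ranged from -0.042 to 0.046. Zbtb16, Lrp2 and Edn1 stayed short of the threshold in all 19. Zbtb16 and Edn1 kept their direction, Zbtb16 at only 0.037 with the mean of its probe sets. Lrp2 was at -1.59e-05, and so had no direction, without control replicate 3 and Ihh-ablated replicate 2, and at -0.52 with the adipocyte covariate.

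The number of called members was 1, that of Il13ra2, in each of the settings in which Acod1 lost its call except the adipocyte covariate, where it was 0, and 1 to 2 without single arrays. Among all probe sets 724 were called, 374 without a trend, 1411 with array weights, 1562 with the replicate block, 1915 without control replicate 3 and Ihh-ablated replicate 2, 23 with the adipocyte covariate, 1852 at an adjusted p under 0.1 and 156 to 3569 without single arrays. The count for other progesterone-responsive genes was 1 with median-centred arrays, 0 without a filter, without a trend and with the adipocyte covariate, 5 with array weights and without both of those arrays, 6 with the replicate block and 0 to 6 without single arrays. For shared progesterone and glucocorticoid targets it was 1 after quantile normalization, without a filter and without a trend, 4 with the replicate block, 0 with the adipocyte covariate and 0 to 5 without single arrays. For receptors and partners of the members it was 0 after quantile normalization, with median-centred arrays, without a filter, without a trend and with the covariate, 3 with array weights, 2 without both of those arrays and 0 to 3 without single arrays. For steroid receptors and chaperones it was 1 (Esr1) with robust eBayes, array weights, the replicate block and without both of those arrays, and 0 to 2 without single arrays.

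Whether replicate numbers in the titles pair the samples could not be decided, because so few arrays per group leave such correlations imprecise. Deviations from the group means of same-numbered arrays correlated at -0.15, -0.04 and 0.25. Of the 6 samples, 2 correlated best with their own number. The fit with the replicate block called 1562 probe sets, against 724 in the fit as reported. With the replicate block Il13ra2 (adjusted p = 0.00124) and Acod1 (0.0160) kept their calls and no other member gained one. Signal over background is unknown here, which limits the dim Fkbp5 and Lrp2 probe sets most.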
